A study of Mus musculus with 18 samples.

Results

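The transcription factor NRF2, encoded by *Nfe2l2*, was examined with 6 genes that it is known to activate, *Nqo1*, *Hmox1*, *Txnrd1*, *Srxn1*, *Slc7a11* and *Prdx1*, and with the 3 superoxide dismutase genes *Sod1*, *Sod2* and *Sod3*. These 10 genes, of the 55487 in each file, were chosen by name for their known roles, with earlier results of these data known. The study removed *Csn8*, which encodes subunit 8 of the COP9 signalosome and is listed as *Cops8*, from fat cells of the mouse. *Csn8* AKO mice carried 2 floxed alleles (*Csn8* f/f) and a Cre transgene under the adiponectin promoter that deletes exons 4 to 6, and Ctrl mice were *Csn8* f/f littermates that lacked the transgene. All were chow-fed males fasted for 4 h. Subcutaneous white fat (sWAT, labelled SF) came from 4 Ctrl and 4 *Csn8* AKO mice aged 12 weeks, and brown fat (BAT) from 5 Ctrl and 5 *Csn8* AKO mice aged 4 weeks. Each of the 18 libraries was made from the whole tissue of 1 mouse. Because this Cre acts in adipocytes, the other cells of the tissue keep an intact gene, and their RNA is in the same library.

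NRF2 is held low by KEAP1, which brings it to a ubiquitin ligase built on cullin 3, and the COP9 signalosome removes NEDD8 from cullins. When KEAP1 is modified by oxidants or electrophiles, NRF2 escapes breakdown, enters the nucleus with a small MAF protein and activates genes for heme, quinone, glutathione and thioredoxin metabolism, so that its activity is set largely at the level of the protein. Superoxide dismutases turn superoxide into hydrogen peroxide in the cytosol, the mitochondria and the extracellular space, and peroxiredoxins and glutathione peroxidases then remove the peroxide.

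Between 15835721 and 66719937 reads were counted per library. Values of single libraries are CPM after TMM scaling within the tissue, SD is the spread between mice, and SE is the standard error of a log2 fold change. Genotypes were compared within each tissue by the quasi-likelihood test of edgeR on the counts, with Benjamini-Hochberg adjustment over the 18843 genes tested in sWAT and the 22345 tested in BAT. A gene was called, and is said to have risen or fallen, when its adjusted p was under 0.05. Each library was also left out on its own. Where a call was lost or gained without a library, the value in brackets is the adjusted p, and where a sign turned, it is the log2 fold change. All 10 genes passed the filter on low counts in both tissues. The targeted gene came first. In sWAT, *Cops8* measured 33.9, 36.2, 34.8 and 35.0 CPM in Ctrl libraries 1 to 4 and 33.0, 29.2, 30.7 and 36.0 CPM in *Csn8* AKO libraries 1 to 4. The groups overlapped, and the difference was not called (log2 fold change -0.12 with SE 0.11, adjusted p = 0.623). In BAT it measured 36.5, 39.0, 40.1, 37.1 and 44.6 CPM in the 5 Ctrl libraries and 28.2, 29.7, 34.5, 31.4 and 36.9 CPM in the 5 *Csn8* AKO libraries. It fell there, with 4 of 5 *Csn8* AKO libraries below every Ctrl library (log2 fold change -0.30 with SE 0.09, adjusted p = 0.0211), but was not called without Ctrl library 5 (0.0525) or *Csn8* AKO library 1 or 4 (0.0570, 0.0579), nor with scaling by library size alone (-0.16, adjusted p = 0.388). A transcript that lacks exons 4 to 6 is still counted for this gene. The difference between the tissues in the *Cops8* effect was not called (interaction -0.19, adjusted p = 0.576), and with library size alone its log2 value was 0.06.

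Some sWAT libraries stood apart. Genes for ribosomal RNA took 31.8% and 47.8% of the counts in *Csn8* AKO libraries 3 and 4, and 18.2% and 19.8% in Ctrl libraries 2 and 3, against at most 4.83% in the other 4. In BAT, Ctrl library 1 and *Csn8* AKO library 2 held 10.1% and 15.1%, and the other 8 at most 4.10%. Markers of lymphocytes were concentrated in a different pair of sWAT libraries. The summed level of 6 T cell markers was 194, 5.47, 3.49 and 9.71 CPM in Ctrl libraries 1 to 4 and 22.5, 260.5, 5.79 and 8.08 CPM in *Csn8* AKO libraries 1 to 4, and that of 5 B cell markers was 152, 2.99, 5.39 and 11.0 CPM and 11.8, 396, 3.38 and 5.09 CPM. Ctrl library 1 and *Csn8* AKO library 2 were therefore far above the rest on both lists, whose most abundant genes in sWAT were *Cd4* and *Pax5*. Of these markers only *Ms4a1* was at 0 in any sWAT library. The tissues were as labelled: *Ucp1*, which defines brown adipocytes, averaged 2780.4 CPM in Ctrl BAT and 2.04 CPM in Ctrl sWAT, and *Adipoq*, a gene of all adipocytes, 644 and 1411 CPM.

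The 10 genes did not move as a unit. In sWAT 2 of them were called, *Hmox1* higher and *Sod1* lower, or 20%, where 5.31% of all tested genes were called. Those were also the 2 genes whose groups did not overlap, against 14.0% of all tested genes. The 10 genes were chosen with earlier results of these data known, so that their shares in sWAT are no test of them as a set. In BAT 3 of the 10 were called, *Hmox1* and *Slc7a11* higher and *Sod3* lower, or 30%, close to the 31.9% of all tested genes, so that the count in BAT says nothing particular about these genes. *Hmox1* alone had groups that did not overlap in BAT, against 21% of all tested genes. At an unadjusted p under 0.05 the numbers were 3 and 4. The share of all tested genes at that threshold is not given here, so these numbers are no result about the 10 genes. The median log2 fold change of the 10 genes was -0.01 in sWAT and 0.01 in BAT, and that of all tested genes 0.03 and 0.01. The sWAT count was 1 without Ctrl library 3 or 4 and without *Csn8* AKO library 1, 3 or 4, where *Sod1* lost its call. Without Ctrl library 2 it was 2 with *Srxn1* in place of *Sod1*. Without the 2 libraries over 30% ribosomal RNA it was 1, and without the 4 over 10%, which leaves 2 mice a group, it was 0, as it was for all genes tested in that fit.

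**Figure D1:**
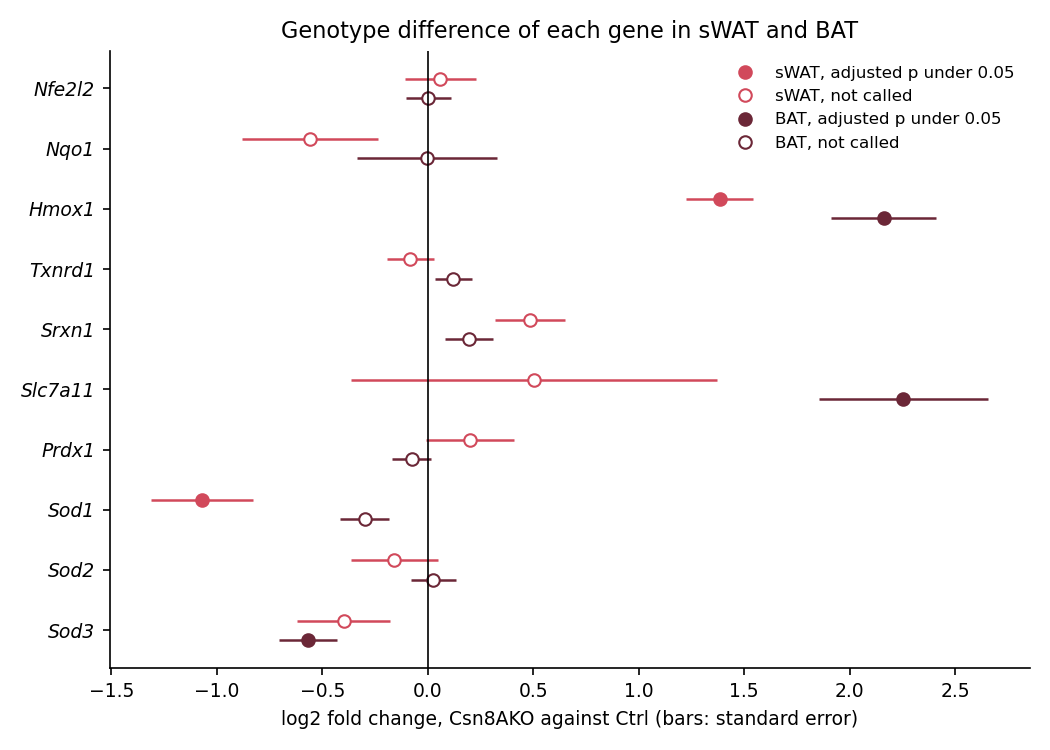
Log2 fold change of *Csn8* AKO against Ctrl for each of the 10 genes (x axis) in sWAT (4 against 4 mice, light red) and BAT (5 against 5 mice, dark red), with filled points for an adjusted p under 0.05 in edgeR and bars for the standard error. *Hmox1* stands at 1.38 and 2.16, *Slc7a11* at 2.25 in BAT with a wide bar in sWAT, and the remaining targets lie between -0.56 and 0.48.

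Transcripts of NRF2 itself showed no genotype difference beyond the spread between mice. *Nfe2l2* (ENSMUSG00000015839, GRCm38 chromosome 2, 75675513 to 75704641) measured 76.3 ± 10.4 CPM (SD, n = 4) in Ctrl and 79.5 ± 15.3 CPM (SD, n = 4) in *Csn8* AKO sWAT, and 76.1 ± 12.0 and 76.3 ± 6.74 CPM (SD, n = 5 each) in BAT. Its log2 fold changes were 0.06 (SE 0.17, adjusted p = 0.890) and 0.0028 (SE 0.11, adjusted p = 0.989). Both were within 1 standard error of 0 and took the opposite sign under some alternatives: in sWAT the value was -0.04 with scaling by library size alone and -0.03 and -0.04 without Ctrl library 1 or *Csn8* AKO library 3, and in BAT it was -0.08 and -0.04 without Ctrl library 1 or 2 and -0.0039 and -0.04 without *Csn8* AKO library 1 or 3. NRF2 protein was not measured here.

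The genes that set NRF2 activity were followed as a list of 14: its ubiquitin ligase (*Keap1*, *Cul3*, *Rbx1*), the kinase and receptors of a second breakdown route (*Gsk3b*, *Btrc*, *Fbxw11*), the autophagy receptor *Sqstm1*, the competing repressor *Bach1*, the small MAF partners *Maff*, *Mafg* and *Mafk*, the related factors *Nfe2l1* and *Nfe2l3*, and *Cops8*. In sWAT 0 rose and 1 fell, with a median log2 fold change of -0.07. The 1 that fell, *Nfe2l1*, encodes a factor of the same family that drives proteasome genes, and went from 484 ± 78.3 to 287 ± 48.2 CPM (SD, n = 4 each) without overlap (log2 fold change -0.75 with SE 0.18, adjusted p = 0.0423). That call was lost without Ctrl library 2, 3 or 4 (0.124, 0.0957, 0.130) or *Csn8* AKO library 1 or 3 (0.107, 0.132), and with RLE factors, with library size alone, with the replicate block and with either set of libraries rich in ribosomal RNA left out (adjusted p 0.0509 to 0.669). In BAT 2 rose and 4 fell, with a median of -0.08. Among all tested genes 5.31% were called in sWAT, with a median of 0.03, and 31.9% in BAT, with a median of 0.01. *Maff* rose from 3.85 ± 0.570 to 8.16 ± 2.95 CPM (log2 fold change 1.08 with SE 0.23, adjusted p = 0.00245) and *Sqstm1*, whose protein draws KEAP1 into autophagosomes, from 176 ± 29.8 to 245 ± 21.5 CPM (log2 fold change 0.48 with SE 0.11, adjusted p = 0.00475). The groups of both overlapped, and *Mrnip* overlaps *Sqstm1* on the opposite strand. *Keap1* fell from 47.8 ± 3.20 to 35.8 ± 3.54 CPM (log2 fold change -0.42 with SE 0.08, adjusted p = 0.00158) and *Bach1* from 45.1 ± 2.24 to 35.2 ± 1.34 CPM (log2 fold change -0.36 with SE 0.07, adjusted p = 9.66e-04), each without overlap between the groups. *Nfe2l1* fell as well (log2 fold change -0.38 with SE 0.11, adjusted p = 0.0168). The fourth was *Cops8*, the gene targeted in these mice, so that its fall is no result about NRF2 control. Scaling by library size alone shifted the median of all tested genes in BAT from 0.01 to 0.14, with 4183 of them then called higher and 2087 lower, and 0 of the 14 were then called lower (*Bach1* -0.23, *Keap1* -0.27, *Nfe2l1* -0.27). For *Bach1* the difference itself was not the same in the tissues. In sWAT its log2 fold change was 0.32 and not called (adjusted p = 0.309), though every *Csn8* AKO library was above every Ctrl library. The interaction of genotype and tissue was -0.69 (adjusted p = 0.0191), or -0.49 (adjusted p = 0.700) with library size alone.

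Of the 6 chosen targets, *Hmox1* alone rose in both tissues. It encodes heme oxygenase 1, which splits heme into biliverdin, iron and carbon monoxide (ENSMUSG00000005413, GRCm38 chromosome 8, 75093621 to 75100589). In sWAT it measured 27.9, 35.9, 39.3 and 43.2 CPM in Ctrl libraries 1 to 4 and 94.5, 86.6, 88.9 and 112 CPM in *Csn8* AKO libraries 1 to 4. Every *Csn8* AKO library was above every Ctrl library, by a wide gap. The means were 36.6 ± 6.51 and 95.5 ± 11.4 CPM (SD, n = 4 each), a 2.61-fold rise (log2 fold change 1.38 with SE 0.16, adjusted p = 0.00222). In BAT it measured 10.6, 9.13, 9.92, 14.2 and 13.9 CPM in the 5 Ctrl libraries and 38.3, 28.8, 69.8, 67.4 and 53.2 CPM in the 5 *Csn8* AKO libraries. The groups were again separate, with *Csn8* AKO libraries 3 and 4 highest and library 2 lowest of its group. The means were 11.5 ± 2.33 and 51.5 ± 17.9 CPM (SD, n = 5 each), a 4.47-fold rise (log2 fold change 2.16 with SE 0.25, adjusted p = 9.81e-05). Leaving out any 1 library kept the call in both tissues, with log2 fold changes of 1.27 to 1.47 in sWAT and 2.03 to 2.31 in BAT. Without the lymphocyte-rich libraries the sWAT value was 1.32, adjusted p = 7.60e-04, and without those over 30% ribosomal RNA 1.29, adjusted p = 0.0275. Without the 4 libraries over 10% it was 1.37, adjusted p = 0.501, the only alternative in which the call was lost. The larger BAT value was not called different from that in sWAT (interaction 0.77, SE 0.31, unadjusted p = 0.0242, adjusted p = 0.234 in edgeR).

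Markers of macrophages, cells that also express heme oxygenase 1, rose beside *Hmox1*. Of 12 markers, 7 rose in sWAT and 10 in BAT, and 0 fell, where 5.31% and 31.9% of all tested genes were called. In sWAT their summed level was 932, 1060.4, 1202 and 1347 CPM in Ctrl libraries 1 to 4 and 2285, 1387, 2463 and 1721 CPM in *Csn8* AKO libraries 1 to 4, with every *Csn8* AKO library above every Ctrl library (two-sided exact permutation test, p = 0.0286, the smallest that 4 against 4 allows). In BAT it was 148, 135, 120.2, 160.3 and 125 CPM in Ctrl and 381, 325, 353, 342 and 404 CPM in *Csn8* AKO libraries, also without overlap (same exact test, p = 0.00794, the smallest that 5 against 5 allows). The means rose 1.73-fold in sWAT and 2.62-fold in BAT, against 2.61-fold and 4.47-fold for *Hmox1*. *Mrc1* was the most abundant marker in sWAT (0.84, adjusted p = 0.0463) and *Csf1r* in BAT (1.07, adjusted p = 8.80e-06), and none was at 0 in any library. *Adgre1*, which defines the list, rose by 1.31 (adjusted p = 0.00180) on the log2 scale in sWAT and by 1.63 (adjusted p = 6.29e-06) in BAT. Fewer or more cells of a type and less or more RNA per cell cannot be told apart in these bulk libraries, and the part of macrophages in the *Hmox1* values was not tested.

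**Figure D2:**
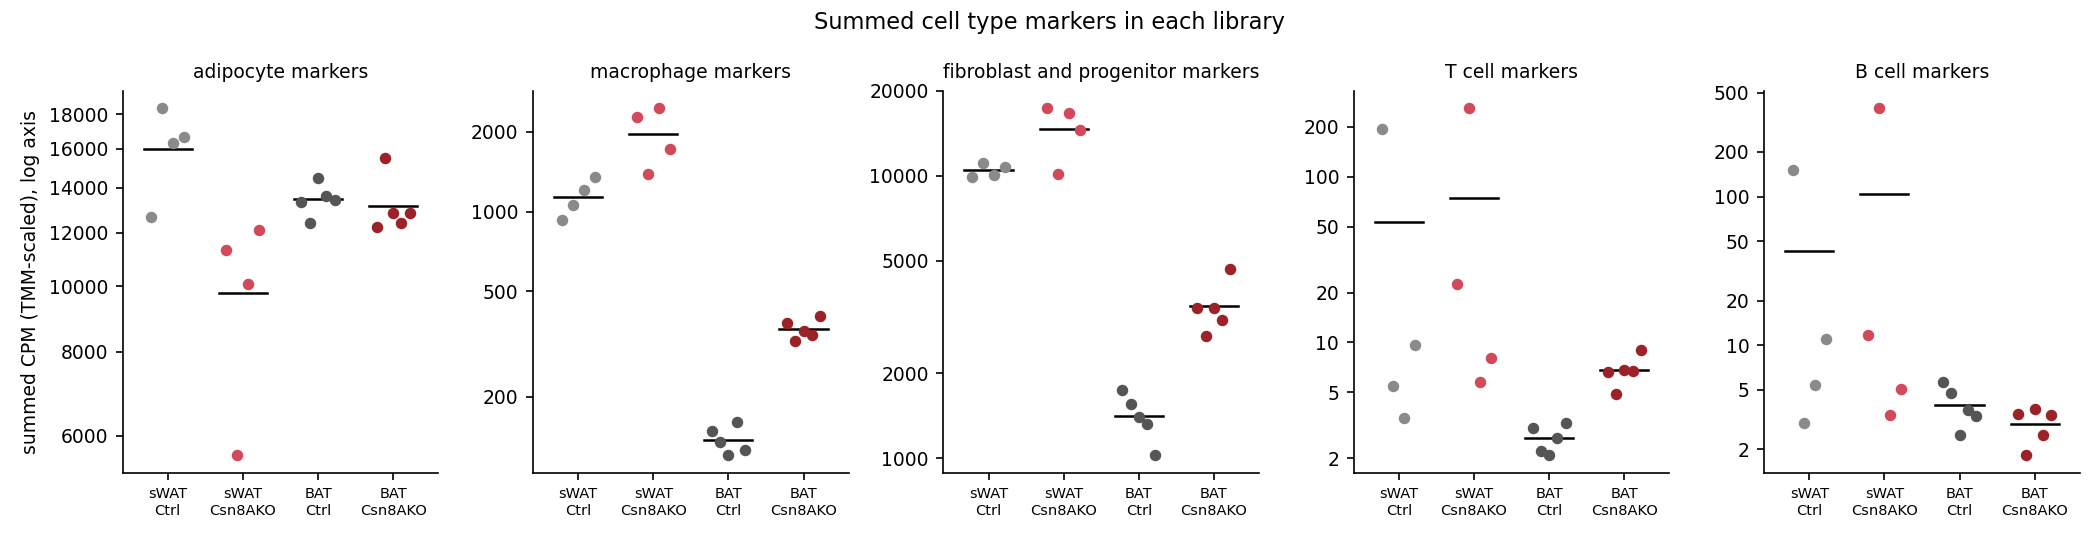
Summed CPM (y axis, log scale) of the marker lists of adipocytes, macrophages, fibroblasts and progenitors, T cells and B cells in each library (points, in order of replicate number within a group) with the group mean (line). Macrophage markers are separate in both tissues, at most 160.3 CPM in Ctrl and at least 325 CPM in *Csn8* AKO BAT, while 1 Ctrl and 1 *Csn8* AKO library of sWAT stand above 100 CPM of both T and B cell markers.

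*Slc7a11* encodes the transport subunit of the antiporter that exchanges glutamate for cystine, the source of cysteine for glutathione (ENSMUSG00000027737, GRCm38 chromosome 3, 49892526 to 50443614). It rose in BAT from a level near the limit of detection. The 5 Ctrl libraries held 6, 10, 6, 18 and 10 reads and the 5 *Csn8* AKO libraries 54, 8, 23, 106 and 27 reads, or 0.155, 0.169, 0.0968, 0.332 and 0.180 CPM and 0.911, 0.315, 0.790, 1.45 and 0.902 CPM. Of the *Csn8* AKO libraries, 4 were above every Ctrl library, and library 2 was just below Ctrl library 4, the highest of its group. The means were 0.187 ± 0.0874 and 0.874 ± 0.404 CPM (SD, n = 5 each), a 4.77-fold rise (log2 fold change 2.25 with SE 0.40, adjusted p = 7.20e-04). The call was kept without each library in turn (1.98 to 2.57), and a filter of over 1 CPM removed the gene from the test. In sWAT it measured 8.46, 1.01, 1.48 and 1.82 CPM in Ctrl libraries 1 to 4 and 2.50, 11.8, 1.79 and 1.94 CPM in *Csn8* AKO libraries 1 to 4. The 2 high values came from Ctrl library 1 and *Csn8* AKO library 2, the libraries rich in T and B cell markers. The difference was not called (log2 fold change 0.50 with SE 0.87, adjusted p = 0.806). Its sign turned without *Csn8* AKO library 2 (-0.62, adjusted p = 0.686). The sign was kept without Ctrl library 1 (1.66, adjusted p = 0.239) and without both (0.54, adjusted p = 0.40). The part of lymphocytes in these levels was not tested. The interaction of genotype and tissue was 1.73 (SE 0.93, adjusted p = 0.397), so that a difference between the tissues was not called. T cell markers also rose in BAT, though from a low level: their sum was 3.02, 2.22, 2.08, 2.64 and 3.26 CPM in Ctrl and 6.60, 4.89, 6.84, 6.72 and 8.99 CPM in *Csn8* AKO libraries, without overlap (exact permutation test, p = 0.00794), and 2 of the 6 were called higher, *Cd3e* at 1.00 (adjusted p = 0.0109) and *Cd4*, the most abundant, at 2.03 (adjusted p = 2.26e-05). Of all tested genes 31.9% were called in BAT, so that the count of 2 of 6 says nothing particular about these markers. None of the 6 was at 0, and the part of T cells in the BAT values of *Slc7a11* was not tested.

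The other 4 targets were not called in either tissue. *Nqo1*, a quinone reductase often used as a readout of NRF2, was low and variable: 2.53 to 4.62 CPM in Ctrl and 1.54 to 3.98 CPM in *Csn8* AKO sWAT (log2 fold change -0.56 with SE 0.32, adjusted p = 0.377), and 0.517 to 1.68 and 0.653 to 1.15 CPM in BAT (log2 fold change -0.0028 with SE 0.33, adjusted p = 0.997). In sWAT 3 of the 4 Ctrl libraries lay above every *Csn8* AKO library. In BAT the sign of *Nqo1* turned without Ctrl library 1 or 5 (0.05, 0.36) and without *Csn8* AKO library 1, 2 or 3 (0.08, 0.0046, 0.09). *Txnrd1*, the cytosolic thioredoxin reductase, measured 72.8 to 78.9 and 66.7 to 80.1 CPM in sWAT (-0.08, adjusted p = 0.737) and 87.7 to 108 and 89.2 to 119 CPM in BAT (0.12, adjusted p = 0.321). *Srxn1*, sulfiredoxin, which repairs overoxidised peroxiredoxins, measured 17.1, 26.4, 17.1 and 18.4 CPM in the Ctrl libraries of sWAT and 25.2, 29.2, 27.4 and 28.7 CPM in the *Csn8* AKO libraries. Ctrl library 2 lay among the *Csn8* AKO values and the other 3 Ctrl libraries well below them (log2 fold change 0.48 with SE 0.16, adjusted p = 0.126, unadjusted p = 0.0143 in edgeR). *Srxn1* was called higher by limma voom (adjusted p = 0.0362) and without Ctrl library 2 (0.0478). In BAT it ran from 28.4 to 42.1 CPM in Ctrl and from 34.0 to 49.9 CPM in *Csn8* AKO libraries (0.20, adjusted p = 0.219). *Prdx1*, a cytosolic peroxiredoxin, measured 107 to 129 and 99.7 to 204 CPM in sWAT (0.20, adjusted p = 0.652), where *Csn8* AKO library 1 was highest and gave the positive sign (-0.04 without it). Its BAT values were 128 to 172 and 138 to 167 CPM (-0.08, adjusted p = 0.566, and 0.05 with library size alone).

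**Figure D3:**
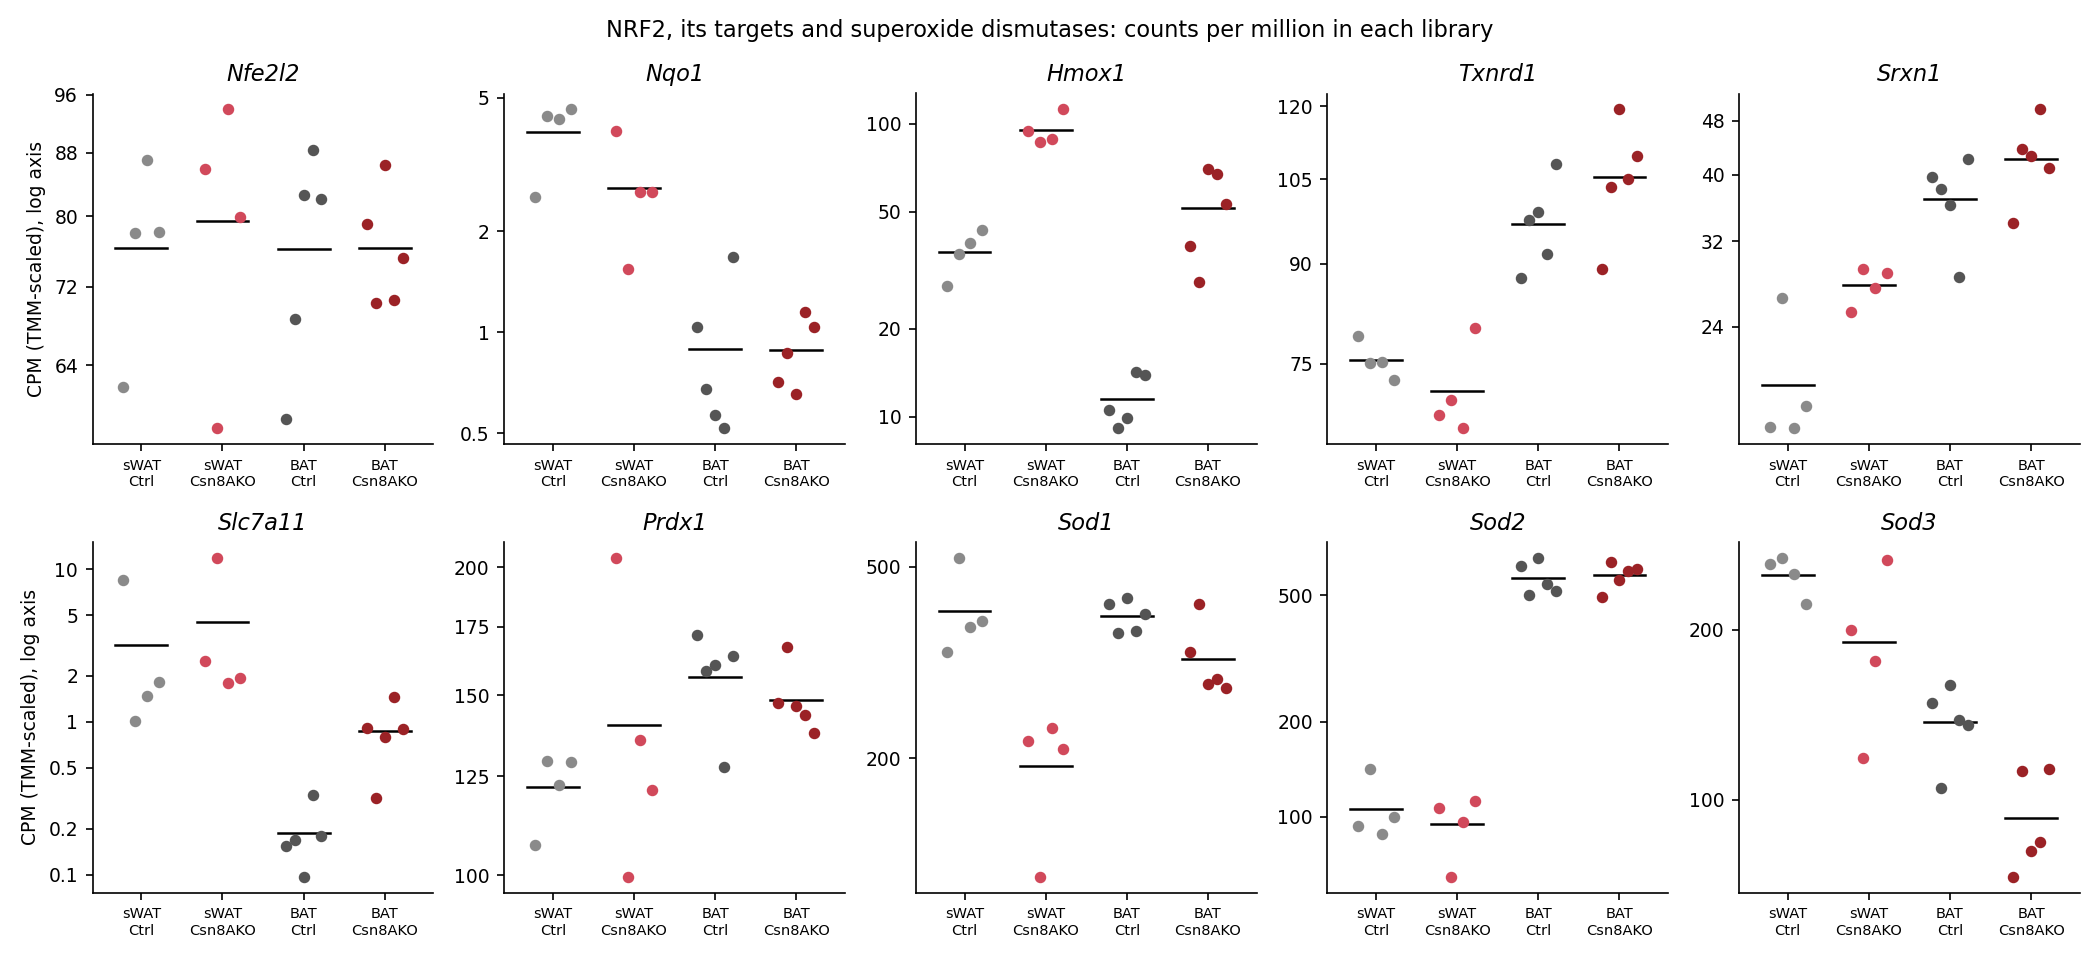
CPM of each of the 10 genes (y axis, log scale, a different range for each gene) in the 18 libraries (points, in order of replicate number within a group) with the group mean (line). *Hmox1* of *Csn8* AKO libraries lies above that of Ctrl libraries in both tissues, *Sod1* of *Csn8* AKO sWAT lies at or below 231 CPM against 332 CPM or more in Ctrl, and 1 library of each sWAT group is far above the rest for *Slc7a11*.

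A further 20 genes known as NRF2 targets were mixed in direction. In sWAT 2 rose and 0 fell, with a median log2 fold change of 0.07 against 0.03 over all tested genes. In BAT 6 rose and 5 fell, with a median of 0.10 against 0.01. Of all tested genes, 5.31% were called in sWAT and 31.9% in BAT. *Ephx1*, an epoxide hydrolase of the endoplasmic reticulum, rose in both, from 40.7 ± 0.958 to 83.7 ± 23.9 CPM in sWAT (log2 fold change 1.04 with SE 0.20, adjusted p = 0.0173) and from 25.7 ± 2.84 to 124 ± 35.8 CPM in BAT (log2 fold change 2.27 with SE 0.19, adjusted p = 5.82e-06), without overlap in either. *Ugdh*, which makes UDP-glucuronate, rose in sWAT from 64.0 ± 8.15 to 112 ± 20.6 CPM (log2 fold change 0.81 with SE 0.16, adjusted p = 0.0222) and, with overlap between the groups, in BAT (log2 fold change 0.40 with SE 0.14, adjusted p = 0.0473). In BAT the log2 fold change of *Ftl1*, the light chain of ferritin, was 0.73 (adjusted p = 2.63e-05), that of *Me1*, the cytosolic malic enzyme that makes NADPH, 0.97 (adjusted p = 5.72e-04), and that of *Osgin1*, a growth inhibitor induced by oxidative stress, 1.11 (adjusted p = 5.82e-04). Among those that fell there, *Blvrb*, biliverdin reductase B, had -0.75 (adjusted p = 1.41e-05). The export pumps *Abcc4* and *Abcc1* had -0.90 (adjusted p = 4.61e-05) and -0.63 (adjusted p = 8.11e-04), and *Tkt*, transketolase of the pentose phosphate pathway, had -0.61 (adjusted p = 0.00501). The groups were separate in BAT for *Ephx1* and for the 7 genes after *Ugdh*.

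The sWAT calls among these further targets were lost in several fits in which the direction was kept. With each library left out, the log2 fold change was 0.88 to 1.21 for *Ephx1* and 0.72 to 0.92 for *Ugdh*. *Ephx1* lost its call without Ctrl library 2, 3 or 4 (0.0644, 0.0672, 0.0607) or *Csn8* AKO library 3 (0.0601), and *Ugdh* without Ctrl library 2, 3 or 4 (0.0764, 0.0519, 0.0724) or *Csn8* AKO library 1 or 3 (0.0600, 0.0738). Both also lost it with library size alone (adjusted p = 0.210 and 0.359), with the replicate block (0.0618 and 0.0911) and without the libraries over 10% ribosomal RNA (0.731 and 0.528), and *Ephx1* without those over 30% (0.121). The number called higher was 0 without Ctrl library 2, 3 or 4 or *Csn8* AKO library 3, 1 without *Csn8* AKO library 1, and 4 without *Csn8* AKO library 2 or without both lymphocyte-rich libraries. By limma voom it was 4, with scaling by library size alone 0, with the replicate block 0, without the libraries over 30% ribosomal RNA 1 and without those over 10% 0. With library size alone, in the fit of all 4 groups and by DESeq2, 1 was called lower in sWAT. In BAT, the fit of all 4 groups together called 3 higher and 3 lower, and *Me1* and *Tkt* were then not called (adjusted p = 0.0569 and 0.150). Neither was *Ugdh* (0.0706), which in BAT also lost its call without Ctrl library 2, 3, 4 or 5 (0.0960, 0.0597, 0.0998, 0.106) or *Csn8* AKO library 1, 3 or 5 (0.0998, 0.0639, 0.118).

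*Sod1*, the copper and zinc dismutase of the cytosol (ENSMUSG00000022982, GRCm38 chromosome 16, 90220754 to 90226329), fell in sWAT. It measured 332, 522, 375 and 386 CPM in Ctrl libraries 1 to 4 and 217, 114, 231 and 209 CPM in *Csn8* AKO libraries 1 to 4. No *Csn8* AKO library reached the lowest Ctrl value, with *Csn8* AKO library 2 lowest and Ctrl library 2 highest of all. The means were 404 ± 82.0 and 193 ± 53.5 CPM (SD, n = 4 each), or 0.477 of the Ctrl level (log2 fold change -1.07 with SE 0.24, adjusted p = 0.0333). The call was lost without Ctrl library 2, 3 or 4 (0.0993, 0.0813, 0.0834) or *Csn8* AKO library 1, 3 or 4 (0.0724, 0.0728, 0.0522), with the replicate block (adjusted p = 0.124) and without the libraries over 30% or over 10% ribosomal RNA (-1.31, adjusted p = 0.0955, and -1.08, adjusted p = 0.675). It was kept without the lymphocyte-rich libraries (-0.96, adjusted p = 0.00660), and the log2 fold change was between -1.17 and -0.88 without each library in turn. In BAT it measured 418, 364, 431, 368 and 399 CPM in Ctrl and 334, 419, 286, 293 and 279.6 CPM in *Csn8* AKO libraries. There 4 of 5 *Csn8* AKO libraries were below every Ctrl library, and *Csn8* AKO library 2, the one richest in ribosomal RNA, lay among the Ctrl values. The difference was not called (log2 fold change -0.30 with SE 0.12, adjusted p = 0.0643). It was called without *Csn8* AKO library 2 (-0.41, adjusted p = 0.00178), without both BAT libraries over 10% ribosomal RNA (-0.41, adjusted p = 0.00288), with no filter on low counts (adjusted p = 0.0286) and by limma voom (0.00453). The interaction of genotype and tissue was 0.76 (SE 0.27, adjusted p = 0.169), or 1.01, adjusted p = 0.0420 with library size alone, a scaling that moved the median interaction of all genes from -0.0041 to 0.21. *Scaf4* overlaps *Sod1* on the opposite strand, and whether the strand was used in counting is not stated. *Scaf4* had 63.1 ± 1.97 and 55.6 ± 11.1 CPM in Ctrl and *Csn8* AKO sWAT (log2 fold change -0.18, adjusted p = 0.547) and rose in BAT (0.23, adjusted p = 0.0332).

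Adipocyte markers were lower beside *Sod1* in sWAT. Of 10 markers, 0 rose and 3 fell there, and their summed level was 12651, 18398, 16327 and 16649 CPM in Ctrl libraries 1 to 4 and 11320.4, 5612, 10069 and 12127 CPM in *Csn8* AKO libraries 1 to 4, with *Csn8* AKO library 2 lowest here as for *Sod1*. The groups did not overlap (exact permutation test, p = 0.0286). The mean sum was 0.611 of the Ctrl level and that of *Sod1* 0.477. In BAT 1 rose and 2 fell, with sums of 13353, 12423, 14479, 13605 and 13427 CPM in Ctrl and 12265, 15478, 12835, 12433 and 12864 CPM in *Csn8* AKO libraries (exact p = 0.690). *Fabp4* was the most abundant marker in both tissues (-0.49, adjusted p = 0.419 and 0.15, adjusted p = 0.345), *Adipoq* had -0.68 (adjusted p = 0.173) and 0.09 (adjusted p = 0.474), and none was at 0. Of all tested genes, 5.31% were called in sWAT and 31.9% in BAT. The part of the adipocyte share in the *Sod1* values was not tested.

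*Sod3*, the dismutase secreted into the extracellular matrix (ENSMUSG00000072941, GRCm38 chromosome 5, 52363791 to 52371418), fell in BAT. It measured 148, 105, 159.9, 138 and 136 CPM in the 5 Ctrl libraries and 73.1, 112, 81.3, 84.4 and 113 CPM in the 5 *Csn8* AKO libraries. *Csn8* AKO libraries 1, 3 and 4 were below every Ctrl library, while libraries 2 and 5 lay above Ctrl library 2, the lowest of its group. The means were 137 ± 20.5 and 92.9 ± 18.7 CPM (SD, n = 5 each), or 0.675 of the Ctrl level (log2 fold change -0.57 with SE 0.14, adjusted p = 0.00687). The call held in every BAT alternative, each library left out included (log2 fold changes -0.65 to -0.44). In sWAT it measured 261, 268, 251 and 222 CPM in Ctrl and 200.1, 119, 176 and 266 CPM in *Csn8* AKO libraries. There 3 of 4 *Csn8* AKO libraries were below every Ctrl library and the fourth was among the highest values, and the difference was not called (log2 fold change -0.40 with SE 0.22, adjusted p = 0.354). The interaction was -0.19 (SE 0.27, adjusted p = 0.814), so that a difference between the tissues was not called, and its sign turned without sWAT *Csn8* AKO library 4 (0.02) and with library size alone (0.13). Markers of fibroblasts and progenitors moved beside *Sod3* in the other direction: all 6 rose in BAT and 0 were called in sWAT. Their sums in BAT were 1753, 1555, 1405, 1323 and 1025 CPM in Ctrl and 3413, 2715, 3407, 3078 and 4666 CPM in *Csn8* AKO libraries, without overlap (exact permutation test, p = 0.00794), and in sWAT 9882, 11135, 10097 and 10757 CPM and 17407, 10168, 16747 and 14507 CPM (exact p = 0.0857). *Col3a1* was the most abundant (1.25, adjusted p = 5.16e-05 in BAT), *Pdgfra* had 1.33 (adjusted p = 5.88e-04) there, and none was at 0. The part of fibroblasts and progenitors in the *Sod3* values was not tested. The called share of all tested genes was 5.31% in sWAT and 31.9% in BAT.

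*Sod2*, the manganese dismutase of mitochondria (ENSMUSG00000006818, GRCm38 chromosome 17, 13006846 to 13040063), was not called in either genotype comparison. It measured 106 ± 24.4 and 95.0 ± 21.2 CPM (SD, n = 4 each) in Ctrl and *Csn8* AKO sWAT (log2 fold change -0.16 with SE 0.21, adjusted p = 0.727) and 567 ± 67.2 and 578 ± 55.3 CPM (SD, n = 5 each) in BAT (log2 fold change 0.03 with SE 0.11, adjusted p = 0.877). The sign turned in sWAT without Ctrl library 2 (0.01), and in BAT without Ctrl library 2 or 5 (-0.02, -0.01) or *Csn8* AKO library 2 (-0.01).

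The next steps of the defence, which remove peroxide and repair oxidised thiols and methionines, were followed in 24 further genes. In sWAT 1 rose and 2 fell (median log2 fold change -0.25), and in BAT 2 rose and 9 fell (median -0.16). The medians of all tested genes were 0.03 and 0.01, and 5.31% and 31.9% of them were called. *Glrx*, the cytosolic glutaredoxin, rose in sWAT from 3.80 ± 0.738 to 12.8 ± 4.74 CPM (SD, n = 4 each) without overlap (log2 fold change 1.75 with SE 0.27, adjusted p = 0.00716), a call kept without each library in turn and lost only without the libraries over 10% ribosomal RNA (adjusted p = 0.483). In BAT its log2 fold change was 0.43 (adjusted p = 0.0507), with a call without *Csn8* AKO library 1 (0.0403) or 2 (0.0141). *Glrx* was also called higher in BAT with library size alone (adjusted p = 0.0337), with the filter of over 1 CPM (0.0383), by limma voom (0.0213), by DESeq2 (0.0375) and without the libraries over 10% ribosomal RNA (0.0190). The interaction for *Glrx* was -1.34 (adjusted p = 0.0242), and was not called without sWAT Ctrl library 3 or 4 (0.0632, 0.0515) or BAT *Csn8* AKO library 4 (0.0509), with library size alone (adjusted p = 0.228) or without the libraries over 10% ribosomal RNA (0.169). *Txnrd3*, a thioredoxin and glutathione reductase, and *Msra*, a methionine sulfoxide reductase, fell in sWAT, each without overlap (log2 fold change -0.92 with SE 0.19, adjusted p = 0.0247, and log2 fold change -0.74 with SE 0.17, adjusted p = 0.0351). In BAT both fell too, with overlap (-0.59, adjusted p = 0.00699, and -0.33, adjusted p = 0.0398), and there *Txnrd3* kept its call in every alternative, while *Msra* lost it without Ctrl library 3 or 4 (0.112, 0.0942) or *Csn8* AKO library 1, 3, 4 or 5 (0.0819, 0.0855, 0.0980, 0.0945), with library size alone (adjusted p = 0.173), with the replicate block (0.0750) and in the fit of all 4 groups (0.0805). In sWAT *Txnrd3* was not called without Ctrl library 2, 3 or 4 (0.0781, 0.0693, 0.0684) or *Csn8* AKO library 1 or 3 (0.0580, 0.0790), and *Msra* not without Ctrl library 2, 3 or 4 (0.107, 0.0864, 0.114) or *Csn8* AKO library 1, 3 or 4 (0.0622, 0.0739, 0.0647), so that the number called lower in sWAT was 0 without Ctrl library 2, 3 or 4 or *Csn8* AKO library 1 or 3, and 1 without *Csn8* AKO library 4. Neither gene was called in sWAT with library size alone (adjusted p = 0.164 and 0.324), with the replicate block (0.109 and 0.128) or without the libraries over 30% (0.0859 and 0.116) or over 10% ribosomal RNA (0.665 and 0.722). The number called lower was 1 with library size alone, 0 in the other 3 of these fits, and 4 by limma voom and without the lymphocyte-rich libraries.

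In BAT, *Ccs*, the chaperone that loads copper into SOD1, fell from 62.9 ± 5.12 to 38.5 ± 3.67 CPM (SD, n = 5 each; log2 fold change -0.71 with SE 0.08, adjusted p = 3.33e-05). *Gpx1*, the cytosolic glutathione peroxidase, fell from 193 ± 21 to 119 ± 13.9 CPM (log2 fold change -0.71 with SE 0.10, adjusted p = 1.32e-04). The mitochondrial *Msrb2* (-0.95, adjusted p = 7.02e-05) and *Glrx2* (-0.49, adjusted p = 8.42e-04) fell too, and *Msrb1*, a selenoprotein of the cytosol and nucleus (0.49, adjusted p = 0.00259), and *Glrx5*, which serves iron-sulfur clusters in mitochondria (0.35, adjusted p = 0.00725), rose. The groups were separate for all of these in BAT except *Glrx5*, which was not called in the fit of all 4 groups (adjusted p = 0.111). The sWAT value of *Ccs* was 0.06 (adjusted p = 0.888), with the opposite sign without Ctrl library 4 (-0.03) or *Csn8* AKO library 1 (-0.0007) and with library size alone (-0.04). Its interaction was -0.79 (adjusted p = 0.0348), and was not called without sWAT Ctrl library 1, 3 or 4 (0.0616, 0.0615, 0.0806), sWAT *Csn8* AKO library 1, 3 or 4 (0.0898, 0.0695, 0.0548), BAT Ctrl library 1, 2, 3 or 4 (0.0654, 0.0606, 0.0587, 0.0574) or BAT *Csn8* AKO library 3, 4 or 5 (0.0725, 0.0635, 0.0714). It was also not called with library size alone (adjusted p = 0.519), with the replicate block (0.0578) or without the libraries over 30% (0.109) or over 10% ribosomal RNA (0.169).

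The NADPH oxidase makes superoxide in phagocytes, and 4 genes for it that are named here rose in BAT, 3 of them also in sWAT. The called share of all tested genes was 31.9% in BAT and 5.31% in sWAT. The 3 in sWAT were the membrane subunits *Cybb* (log2 fold change 1.06 with SE 0.17, adjusted p = 0.00788) and *Cyba* (log2 fold change 1.05 with SE 0.20, adjusted p = 0.0153) and the cytosolic subunit *Ncf1* (log2 fold change 1.11 with SE 0.16, adjusted p = 0.00531), each without overlap between the groups. *Cyba* lost its call without Ctrl library 2, 3 or 4 (0.0586, 0.0611, 0.0580) or *Csn8* AKO library 3 (0.0576), and with the replicate block (adjusted p = 0.0538). With library size alone none of these 3 was called in sWAT (adjusted p = 0.148, 0.190 and 0.124), nor was any without the libraries over 10% ribosomal RNA (0.534, 0.543 and 0.467). In BAT *Cyba* rose from 5.34 ± 0.786 to 16.5 ± 2.45 CPM (SD, n = 5 each; log2 fold change 1.63 with SE 0.13, adjusted p = 1.71e-06), and *Ncf1* (1.44, adjusted p = 4.20e-05) and the GTPase *Rac2* (1.38, adjusted p = 6.14e-05) rose too, as did *Cybb* (1.67, adjusted p = 1.61e-04). *Rac2* was not called in BAT in the fit of all 4 groups (adjusted p = 0.116), nor in sWAT (log2 fold change 0.64 with SE 0.94, adjusted p = 0.766), where its sign turned without *Csn8* AKO library 2 (-0.39). Its interaction was 0.73 (adjusted p = 0.762), or -0.38 without sWAT Ctrl library 1. A gene on the other strand overlaps *Ncf1* (*Gtf2ird2*) and *Cyba* (*Gm20388*). The NADPH oxidase genes that rose did so in the same tissues as the macrophage markers described beside *Hmox1*. The sWAT libraries on which the signs of *Rac2* depended are those rich in T and B cell markers. The part of macrophage or lymphocyte number in the values of the NADPH oxidase genes was not tested.

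Other cell types also differed between the genotypes, where 5.31% of all tested genes were called in sWAT and 31.9% in BAT. In sWAT, brown adipocyte markers fell in 3 of the 7 tested of 8, and their sum was 109.5, 206, 106 and 129 CPM in Ctrl and 39.5, 20.9, 21.2 and 42.9 CPM in *Csn8* AKO libraries (exact p = 0.0286). Their most abundant gene there, *Kcnk3*, fell (-1.88, adjusted p = 0.0128), and *Ucp1*, *Dio2* and *Elovl3* were at 0 in some sWAT libraries. In BAT 1 of the 8 rose and 1 fell, and the sums overlapped (4682 to 8009.5 CPM in Ctrl and 4699 to 9682 CPM in *Csn8* AKO, exact p = 0.310), with *Ucp1* the most abundant (0.53, adjusted p = 0.167). Markers of smooth muscle and pericytes had sums of 481, 700.3, 536 and 591 CPM and 303, 355, 386 and 458 CPM in sWAT, where 2 of 6 fell, *Cspg4* (-1.44, adjusted p = 0.0155), the most abundant, among them (exact p = 0.0286). In BAT 3 rose and 1 fell, and the sums ran from 724 to 842 CPM in Ctrl and 679 to 892 CPM in *Csn8* AKO (exact p = 0.484). Neutrophil markers were near 0: 4.89, 4.91, 3.67 and 4.67 CPM and 6.94, 15.1, 5.24 and 5.53 CPM in sWAT (exact p = 0.0286) and 1.53 to 2.32 CPM in Ctrl and 1.17 to 2.95 CPM in *Csn8* AKO BAT (exact p = 0.770), with 0 called of the 3 and 2 tested of 7, with *Ly6g* at 0 in every sWAT library and some of BAT, *S100a8* and *Mpo* at 0 in some libraries of each tissue and *Cxcr2* in some of sWAT. B cell markers in BAT summed to 2.48 to 5.64 CPM in Ctrl and 1.81 to 3.71 CPM in *Csn8* AKO (exact p = 0.190), with 1 of 5 lower, *Cd79a*, the most abundant (-0.93, adjusted p = 0.00568).

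Endothelial markers overlapped between genotypes in both tissues, 467 to 554 CPM in Ctrl and 362 to 568 CPM in *Csn8* AKO sWAT (exact p = 0.40, 0 of 6 called) and 646 to 862 CPM in Ctrl and 697 to 994 CPM in *Csn8* AKO BAT (exact p = 0.175, 2 of 6 higher). Erythroid markers, whose cells are rich in heme, summed to 409 to 593 CPM in Ctrl and 251 to 738 CPM in *Csn8* AKO sWAT and 515 to 1335 CPM in Ctrl and 449 to 710.2 CPM in *Csn8* AKO BAT (exact p = 0.600 and 0.341), and 0 of 5 were called in either. Skeletal muscle markers varied between single libraries, 163 to 2720.2 CPM in Ctrl and 45.9 to 1631 CPM in *Csn8* AKO sWAT (exact p = 0.514, 0 of 6 called) and 1.46 to 2.11 CPM in Ctrl and 1.34 to 200.3 CPM in *Csn8* AKO BAT (exact p = 0.0794, 2 of 3 tested higher), where *Csn8* AKO libraries 1 and 5 were high and *Ckm*, *Myh4* and *Myh1* were at 0 in some libraries. Among T and B cell markers in sWAT 0 of 6 and 0 of 5 were called. The part of these cell types in the values of the 10 genes was not tested. Beside these counts, 5.31% of all tested genes were called in sWAT and 31.9% in BAT.

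A fit of all 18 libraries asked whether the genotype difference was itself unequal in the tissues (the interaction), and in it tissue and age cannot be told apart. With edgeR 0 of the 10 genes were called, where 2.36% of all 22509 tested genes were. At an unadjusted p under 0.05 there were 2, *Hmox1* (unadjusted p = 0.0242) and *Sod1* (unadjusted p = 0.0118), without the share of all tested genes at that threshold. DESeq2 and limma voom called 0. With scaling by library size alone *Sod1* was called. This test uses the same Ctrl libraries as the comparisons within tissues.

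Per kilobase of gene length, with TMM scaling over all 4 groups in place of that within the tissue, the 10 genes spanned a wide range. In Ctrl sWAT the mean level in CPM per kilobase was 98.7 ± 22.0 (SD, n = 4) for *Sod1*, then 64.9 for *Sod3*, 38.9 for *Prdx1*, 20.3 for *Hmox1*, 19.5 for *Nfe2l2*, 10.3 for *Txnrd1*, 10.3 for *Sod2*, 6.80 for *Srxn1*, 2.48 for *Nqo1* and 0.218 for *Slc7a11*. The ranges over mice overlapped between *Hmox1* and *Nfe2l2*, *Txnrd1* and *Sod2*, and *Sod2* and *Srxn1*, and not between the other neighbours. In *Csn8* AKO sWAT the order began with *Hmox1* at 52.5 ± 6.85, *Sod3* at 49.1 ± 16.3, *Sod1* at 46.9 ± 13.8 and *Prdx1* at 44.5 ± 15.2 CPM per kilobase, and these 4 neighbours overlapped. *Nfe2l2* followed at 20.2, then *Txnrd1* at 9.68, *Srxn1* at 9.41 and *Sod2* at 9.17, which overlapped, and *Nqo1* at 1.68 and *Slc7a11* at 0.305.

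In Ctrl BAT the order of levels per kilobase was *Sod1* at 103 ± 7.94 (SD, n = 5), *Sod2* at 58.7, *Prdx1* at 53.2, *Sod3* at 38.1, *Nfe2l2* at 20.8, *Txnrd1* at 14.1, *Srxn1* at 13.6, *Hmox1* at 6.82, *Nqo1* at 0.596 and *Slc7a11* at 0.0139 CPM per kilobase. *Sod2* and *Prdx1*, *Prdx1* and *Sod3*, and *Txnrd1* and *Srxn1* overlapped. In *Csn8* AKO BAT *Hmox1*, at 30 ± 10.5, stood between *Prdx1* at 49.8 and *Sod3* at 25.4, with *Sod1* at 82.9, *Sod2* at 58.9, *Nfe2l2* at 20.5, *Srxn1* at 15.3, *Txnrd1* at 15.2, *Nqo1* at 0.580 and *Slc7a11* at 0.0640. There *Sod2* and *Prdx1*, *Hmox1* and *Sod3*, *Sod3* and *Nfe2l2*, and *Srxn1* and *Txnrd1* overlapped. The lengths in the files cover all exons of a gene, and the order depends on them: with the length of the principal transcript, which is 641 bases for *Sod1* in place of 3970, *Sod1* came first in all 4 groups, at 612, 290.4, 640.3 and 513 CPM per kilobase.

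Between the Ctrl tissues, 8 of the 10 genes differed, where 51.5% of all 22509 tested genes did, and tissue and age cannot be told apart. Higher in BAT were *Sod2* (log2 fold change 2.51 with SE 0.19, adjusted p = 1.40e-09), *Srxn1* (1.00, adjusted p = 1.33e-05), *Txnrd1* (0.46, adjusted p = 5.85e-04) and *Prdx1* (0.45, adjusted p = 0.0260). Lower in BAT were *Slc7a11* (log2 fold change -3.97 with SE 0.70, adjusted p = 1.31e-04), *Nqo1* (-2.06, adjusted p = 4.90e-05), *Hmox1* (-1.57, adjusted p = 9.11e-06) and *Sod3* (-0.77, adjusted p = 0.00211). The value of *Slc7a11* kept its call throughout but was -2.87, adjusted p = 6.89e-04 without sWAT Ctrl library 1 and -2.87, adjusted p = 9.80e-06 without both lymphocyte-rich libraries. *Nfe2l2* (0.09, adjusted p = 0.626) and *Sod1* (0.07, adjusted p = 0.797) were not called. The call of *Prdx1* was lost without sWAT Ctrl library 1 (0.115) or BAT Ctrl library 1 (0.0554), with the replicate block (adjusted p = 0.0513) and without the libraries over 10% ribosomal RNA (adjusted p = 0.117). Scaling by library size alone moved the median of all genes in this comparison from 0.03 to -0.21, and *Prdx1* and *Txnrd1* were then not called (adjusted p = 0.499 and 0.457). All 12 macrophage markers were lower in Ctrl BAT than in Ctrl sWAT, as was *Hmox1*, and their part in the *Hmox1* value was not tested. These Ctrl libraries are also those of the genotype comparisons.

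For each gene called in at least 1 tissue, the 2 genes with the most similar profile were taken by the root mean square difference in log2 CPM over the 18 libraries, each gene centred on its own mean, among 15302 genes. Nearest to *Hmox1* were *Fgl2* (difference 0.354; log2 fold change 1.27 in sWAT, adjusted p = 0.00632, and 2.01 in BAT, adjusted p = 2.78e-04) and *Fbln7* (difference 0.375; log2 fold change 1.29 in sWAT, adjusted p = 0.0159, and 1.79 in BAT, adjusted p = 5.87e-06). Nearest to *Slc7a11* were *Psd4* (difference 0.412; log2 fold change 0.84 in sWAT, adjusted p = 0.688, and 1.34 in BAT, adjusted p = 7.27e-05) and *Hcst* (difference 0.423; log2 fold change 0.58 in sWAT, adjusted p = 0.728, and 1.84 in BAT, adjusted p = 4.79e-04). Closest to *Sod1* were *Chchd6* (difference 0.171; log2 fold change -0.82 in sWAT, adjusted p = 0.0881, and -0.47 in BAT, adjusted p = 0.00152) and *Alad* (difference 0.178; log2 fold change -0.91 in sWAT, adjusted p = 0.0469, and -0.46 in BAT, adjusted p = 0.0181). Closest to *Sod3* were *Dmpk* (difference 0.197; log2 fold change -0.40 in sWAT, adjusted p = 0.432, and -0.53 in BAT, adjusted p = 0.00437) and *Klhl5* (difference 0.228; log2 fold change -0.37 in sWAT, adjusted p = 0.247, and -0.21 in BAT, adjusted p = 0.0657). The 18 libraries share tissue and genotype, so that these measures describe the profiles and test nothing.

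NRF2 with a small MAF protein binds antioxidant response elements, whose core was searched as TGACNNNGC on both strands of the RefSeq promoter windows (GRCm38.p6, 250 bases before to 50 after a start of transcription). Of 32851 windows, 12.4% held a match. *Hmox1* and *Sod3* have no window in the table. The other 8 genes had 10 windows, and 5 of these, 1 each of *Nfe2l2*, *Txnrd1*, *Srxn1*, *Prdx1* and *Sod1*, held a match, while those of *Nqo1*, *Slc7a11* and *Sod2* held none. The match in *Prdx1* overlaps one to the AP-1 motif TGANTCA, and the others do not. The windows of *Slc7a11* (chr3:50443564-50443863, minus strand) and *Sod1* (chr16:90220512-90220811, plus strand) are printed because these genes were called and have a window, and that of *Prdx1* (chr4:116685349-116685648, plus strand) because it shows the core overlapping another motif. Capitals mark the match, which reads on the opposite strand in *Prdx1* and *Sod1*. A match in these letters is no evidence of binding, and its lack in a window of this length says nothing about the factor.
*Slc7a11*: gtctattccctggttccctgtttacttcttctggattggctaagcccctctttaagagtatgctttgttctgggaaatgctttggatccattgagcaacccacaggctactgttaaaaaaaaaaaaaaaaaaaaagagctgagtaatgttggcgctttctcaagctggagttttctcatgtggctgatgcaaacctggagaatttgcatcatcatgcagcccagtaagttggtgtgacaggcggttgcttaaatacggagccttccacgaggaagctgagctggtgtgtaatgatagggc
*Prdx1*: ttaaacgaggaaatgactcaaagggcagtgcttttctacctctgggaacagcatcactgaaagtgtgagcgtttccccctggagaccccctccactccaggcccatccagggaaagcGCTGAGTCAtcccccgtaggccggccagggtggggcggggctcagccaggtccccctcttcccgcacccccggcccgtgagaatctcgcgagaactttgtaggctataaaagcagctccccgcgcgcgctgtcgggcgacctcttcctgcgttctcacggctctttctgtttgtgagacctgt
*Sod1*: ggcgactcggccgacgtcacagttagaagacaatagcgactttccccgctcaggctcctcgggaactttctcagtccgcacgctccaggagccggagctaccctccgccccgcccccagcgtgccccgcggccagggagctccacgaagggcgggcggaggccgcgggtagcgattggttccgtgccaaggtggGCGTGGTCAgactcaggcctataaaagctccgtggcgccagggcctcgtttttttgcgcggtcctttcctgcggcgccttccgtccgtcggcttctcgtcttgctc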

How the data were processed

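RNA was measured in the 18 libraries above. The libraries had been depleted of ribosomal RNA and read in pairs of 150 bases. The authors aligned these with STAR 2.7.9a to the GRCm38 genome of Ensembl release 101 and deposited counts per gene. The authors also deposited CPM, FPKM and TPM, which were checked against the counts within an absolute tolerance of 1e-06 and were not used. The 10 genes and all lists were chosen with earlier results of these data known. Symbols were taken from GENCODE M21.

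Counts were fitted with edgeR 4.0.16 in R 4.3.3 (TMM, filterByExpr with minimum count 10 and minimum total 15, robust quasi-likelihood fit), within each tissue for the genotype comparisons and over all 4 groups for the interaction and the Ctrl tissues. P-values were adjusted by Benjamini-Hochberg over all genes tested, with 0.05 as the threshold. For sums of markers and measures of a library, a two-sided exact permutation test was used. Named genes were all 10 genes, *Cops8*, from each of 4 pathway lists up to 4 called genes per direction and tissue in order of adjusted p, the first and the most abundant gene of each of 11 marker lists, and the 2 genes of most similar profile for each called gene. One gene that this rule selects is not reported here. Alternatives were RLE factors, library size alone, no filter, a filter of over 1 CPM, no ribosomal RNA genes, a block for the replicate number, all 4 groups in 1 fit, limma voom (limma 3.58.1), DESeq2 1.42.0 and each library left out. Single genes of marker lists and genes of similar profile were not refitted under them. Chosen after seeing the data were fits without libraries over 30% or 10% ribosomal RNA or over 100 CPM of T and B cell markers, and the principal transcript length. The fits were tested on simulated data. Tables and figures used Python 3.11.15, numpy 2.4.6, pandas 2.3.3, scipy 1.17.1 and matplotlib 3.10.9.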

Additional observations from a re-analysis of the deposited data

Results flagged for a closer look

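Of 96 groups of 4 or 5 libraries examined, 12 held a library whose distance from its nearest neighbour was large for the range of its group, where chance gives about 1 in 20 groups. In Ctrl sWAT these were the lowest value of *Nqo1* (2.53 CPM, library 1) and the highest of *Srxn1* (26.4 CPM, library 2), *Slc7a11* (8.46 CPM, library 1), the T cell sum (194 CPM, library 1), the B cell sum (152 CPM, library 1) and the skeletal muscle sum (2720.2 CPM, library 3). In *Csn8* AKO sWAT, library 2 was highest for *Slc7a11* (11.8 CPM), the T cell sum (260.5 CPM) and the B cell sum (396 CPM). In *Csn8* AKO BAT, library 2 was highest for the ribosomal RNA share (15.1%) and the adipocyte sum (15478 CPM) and lowest for the sum of smooth muscle and pericyte markers (679 CPM).

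For 7 named genes of the pathway lists the genotype difference in BAT minus that in sWAT passed the interaction test of edgeR, with Benjamini-Hochberg adjustment. It was -1.20 (adjusted p = 8.57e-04) for *Abcc4* (0.30 in sWAT and -0.90 in BAT) and -0.69 (adjusted p = 0.0191) for *Bach1* (0.32 in sWAT and -0.36 in BAT), which kept the call without each library in turn. For *Glrx* it was -1.34 (adjusted p = 0.0242), with 1.75 in sWAT and 0.43 in BAT, and the call was lost without sWAT Ctrl library 3 or 4 (0.0632, 0.0515) or BAT *Csn8* AKO library 4 (0.0509). For *Ephx1* it was 1.21 (adjusted p = 0.0302), with 1.04 in sWAT and 2.27 in BAT, lost without sWAT Ctrl library 2, 3 or 4 (0.0556, 0.0564, 0.0569), sWAT *Csn8* AKO library 1 (0.0622), BAT Ctrl library 1, 2 or 4 (0.0530, 0.0602, 0.0549) or BAT *Csn8* AKO library 4 (0.0590). For *Me1* it was 2.16 (adjusted p = 0.0350), with -1.20 in sWAT and 0.97 in BAT, lost without sWAT *Csn8* AKO library 3 (0.0666), BAT Ctrl library 1, 2, 4 or 5 (0.0545, 0.0652, 0.0644, 0.0549) or BAT *Csn8* AKO library 1, 3 or 4 (0.0542, 0.0585, 0.0590). Without sWAT Ctrl library 2 these values of *Me1* were 1.44 for the interaction and -0.51 in sWAT. *Ccs* had -0.79 (adjusted p = 0.0348), with 0.06 in sWAT and -0.71 in BAT, lost without sWAT Ctrl library 1, 3 or 4 (0.0616, 0.0615, 0.0806), sWAT *Csn8* AKO library 1, 3 or 4 (0.0898, 0.0695, 0.0548), BAT Ctrl library 1, 2, 3 or 4 (0.0654, 0.0606, 0.0587, 0.0574) or BAT *Csn8* AKO library 3, 4 or 5 (0.0725, 0.0635, 0.0714). *Msrb1* had 0.91 (adjusted p = 0.0430), with -0.44 in sWAT and 0.49 in BAT, lost without sWAT Ctrl library 2, 3 or 4 (0.0618, 0.106, 0.0706), sWAT *Csn8* AKO library 2 or 3 (0.0504, 0.0737), BAT Ctrl library 1, 2, 4 or 5 (0.0705, 0.0827, 0.0609, 0.0625) or BAT *Csn8* AKO library 1, 3, 4 or 5 (0.0681, 0.0775, 0.0591, 0.0780). With library size alone the calls of *Abcc4*, *Bach1*, *Glrx* and *Ccs* were lost (adjusted p = 0.138, 0.700, 0.228 and 0.519). With the replicate block those of *Ephx1*, *Me1* and *Ccs* were lost (adjusted p = 0.0711, 0.110 and 0.0578), by limma voom that of *Ephx1* (adjusted p = 0.0518) and with no filter on low counts that of *Me1* (adjusted p = 0.109). Without the libraries over 30% ribosomal RNA those of *Me1*, *Ccs* and *Msrb1* were lost (adjusted p = 0.0641, 0.109 and 0.0539), and without those over 10% those of *Glrx*, *Ephx1*, *Me1*, *Ccs* and *Msrb1* (adjusted p = 0.169, 0.0691, 0.149, 0.169 and 0.211). Tissue and age cannot be told apart in these values.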

How the results depend on the processing

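For the 43 called log2 fold changes within tissues of genes that the naming rule selects, 405 values under other alternatives kept direction and call and 48 kept the direction and lost the call. With each library left out the numbers were 354 and 52. The number of the 10 genes called in sWAT, 2, was 1 with the replicate block, 1 without the libraries over 30% ribosomal RNA, 0 without those over 10%, and 1 to 2 with each library left out. By limma voom *Srxn1* was also called there. In BAT *Sod1* was also called with no filter, by limma voom, without *Csn8* AKO library 2 and without the libraries over 10% ribosomal RNA. The filter of over 1 CPM removed *Slc7a11* from the BAT test. Whether replicate numbers pair the mice is not stated. The correlation of deviations between libraries of one number ran from -0.39 to 0.22 in sWAT and -0.10 to 0.10 in BAT. Between libraries of different numbers it ran from -0.42 to 0.65 in sWAT and -0.10 to 0.16 in BAT. These values show no pairing by number but cannot exclude one, because other differences between libraries enter the same measure. For the interaction the number of the 10 genes called was 1 with library size alone. The opposite sign appeared only in values that were not called. With library size alone the log2 fold change was -0.042 for *Nfe2l2* and -0.037 for *Ccs* in sWAT, 0.14 for *Nqo1* and 0.053 for *Prdx1* in BAT, 0.17 for *Nfe2l2* and 0.13 for *Sod3* in the interaction, and -0.12 for *Nfe2l2* and -0.15 for *Sod1* between Ctrl tissues. Without the libraries over 30% ribosomal RNA it was -0.099 for *Nfe2l2* and -0.063 for *Ccs* in sWAT, and 0.088 and 0.082 for *Nfe2l2* and *Sod3* in the interaction. In BAT *Nfe2l2* had -0.016 with no filter, -0.018 in the fit of all groups, -0.015 by limma voom and -0.063 without the libraries over 10% ribosomal RNA, and *Nqo1* 0.083 with the replicate block, 0.33 by limma voom and 0.046 without those over 10%. Without the lymphocyte-rich libraries *Nfe2l2* and *Sod1* had -0.035 and -0.059 between Ctrl tissues. With each library left out the ranges were, in sWAT, -0.038 to 0.18 for *Nfe2l2*, -0.62 to 1.66 for *Slc7a11*, -0.040 to 0.33 for *Prdx1*, -0.26 to 0.0069 for *Sod2* and -0.034 to 0.20 for *Ccs*. In BAT they were -0.078 to 0.067 for *Nfe2l2*, -0.14 to 0.36 for *Nqo1* and -0.017 to 0.087 for *Sod2*. In the interaction they were -0.20 to 0.035 for *Nfe2l2*, -0.016 to 0.26 for *Sod2* and -0.36 to 0.021 for *Sod3*, and between Ctrl tissues -0.037 to 0.17 for *Nfe2l2* and -0.060 to 0.23 for *Sod1*. In the *Cops8* interaction library size alone gave 0.057. For *Rac2* the ranges with each library left out were -0.39 to 1.80 in sWAT and -0.38 to 1.72 in the interaction. The causes were not tested. *Nqo1* and *Slc7a11* in BAT have no value under the filter of over 1 CPM. Leaving out a library leaves 3 mice in a group of sWAT, and leaving out those over 10% ribosomal RNA leaves 2 in each. Of the 10 genes, *Slc7a11* had the smallest count in a BAT library, with 6 to 106 reads per library.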
